A study of Mus musculus with 3 samples.

Results

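The Hox genes were examined as a positional code carried by single cells of the newborn mouse sinoatrial node region. Every gene symbol made of Hox, a cluster letter from a to d and a paralog number was taken, which gave 39 of the 28001 features in the gene tables. They comprise 11 genes of cluster A, 10 of cluster B, 9 of cluster C and 9 of cluster D. By paralog number, 8 are anterior (1 to 3), 15 central (4 to 8) and 16 posterior (9 to 13). Another 4 features whose names begin with Hox, all non-coding, do not match this rule and were kept apart.

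All cells came from ICR mice at postnatal day 2 carrying HCN4H2BGFP, by its name a histone-coupled green fluorescent reporter of Hcn4, the gene of the pacemaker channel. Strain, age and reporter are the same in all groups, so no group lacks the reporter. There were 3 droplet libraries, 1 per group. The GFP-positive and GFP-negative libraries were sorted on the reporter from the sinoatrial node region, and the RA library was left unsorted. Its title names RA while its tissue label names the node region, a disagreement the labels do not settle, and the number of animals behind each library is not given.

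Hox genes encode homeodomain transcription factors that lie in 4 clusters, and their order along a cluster follows the order in which they are used along the body axis. Genes with low paralog numbers act in the hindbrain, pharyngeal arches and cardiac outflow region, and genes with high numbers act in the trunk, limbs and tail. Cells of many adult and newborn tissues keep part of the code of the place they came from. Retinoic acid induces the genes at the anterior end of the clusters, and PBX and MEIS proteins bind DNA together with Hox proteins. Around the heart, retinoid-dependent anterior Hox genes mark progenitors of the atria and outflow tract.

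RefSeq upstream windows of 4 genes are shown, because Hoxd9 and Hoxd8 were highest in lymphatic cells, Hoxc4 marked epicardial cells and some fibroblasts, and Hoxa5 had the most Hox UMIs. Each is the 250 bases before the transcription start, 5′ to 3′ on the gene's strand, from RefSeq on GRCm38.p6. Capitals mark the nuclear receptor core site AGGTCA on either strand, the core of sites that retinoic acid receptors bind.
Hoxa5 (ENSMUSG00000038253), chr6:52204588-52204837, minus strand: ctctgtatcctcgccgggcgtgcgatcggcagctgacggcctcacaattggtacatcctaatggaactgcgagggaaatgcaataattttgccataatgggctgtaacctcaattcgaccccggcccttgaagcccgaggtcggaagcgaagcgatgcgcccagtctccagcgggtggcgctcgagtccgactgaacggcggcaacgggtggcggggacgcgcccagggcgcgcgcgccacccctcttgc
Hoxc4 (ENSMUSG00000075394), chr15:103034145-103034394, plus strand: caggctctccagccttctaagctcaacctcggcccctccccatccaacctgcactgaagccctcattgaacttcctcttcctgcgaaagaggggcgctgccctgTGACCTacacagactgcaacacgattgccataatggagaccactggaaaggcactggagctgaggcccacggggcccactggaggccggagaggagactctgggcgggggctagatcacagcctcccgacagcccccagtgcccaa
Hoxd8 (ENSMUSG00000027102), chr2:74704365-74704614, plus strand: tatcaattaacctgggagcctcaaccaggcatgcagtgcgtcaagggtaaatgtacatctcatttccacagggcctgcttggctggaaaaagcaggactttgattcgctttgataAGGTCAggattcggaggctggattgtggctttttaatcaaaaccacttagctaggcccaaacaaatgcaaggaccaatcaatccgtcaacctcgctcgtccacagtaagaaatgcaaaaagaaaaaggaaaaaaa
Hoxd9 (ENSMUSG00000043342), chr2:74697513-74697762, plus strand: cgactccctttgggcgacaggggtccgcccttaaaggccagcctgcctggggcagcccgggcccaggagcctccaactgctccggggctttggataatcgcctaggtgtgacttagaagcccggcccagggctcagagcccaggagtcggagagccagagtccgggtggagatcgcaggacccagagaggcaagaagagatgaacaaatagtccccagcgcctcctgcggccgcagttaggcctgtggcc
The Hoxc4 window held the site on the strand opposite to the gene, starting 146 bases upstream, and the Hoxd8 window held it on the gene's strand, 135 bases upstream. None of these 4 windows held the MEIS motif TGACAG or the PBX-HOX motif TGATNNAT on either strand. RefSeq windows were found for 22 of the 39 genes, 24 windows in all. AGGTCA was in 25% of the Hox windows and 14.0% of all 32851 windows, TGATNNAT in 16.7% and 7.68%, and TGACAG in 8.33% and 15.9%. A match is a run of letters and not a bound site. The GC content was 44.4% for Hoxd8 and 62.0% to 65.2% for the other three.

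After filters 3289 GFP-positive, 3032 GFP-negative and 1289 RA cells remained, which had median depths of 12429, 11417 and 14143 UMIs. A UMI counts 1 captured RNA molecule, and levels are given as CPM, UMIs per 1000000 UMIs of a summed group. They carry no length correction, so levels of different genes are not ranked against each other. Haemoglobin made up 0.0340%, 4.88% and 7.70% of the UMIs, and 8 to 19 barcodes were shared by any pair of libraries. Cells were gated by marker genes, and each gated class had all or all but 1 of its own markers read. Of cells gated as cardiomyocytes, those of the GFP-positive library had the node gene Shox2 at 464.7 CPM and Tbx3 at 71.1 CPM, against 5.94 and 0 CPM in GFP-negative and 0 and 1.96 CPM in RA. With 1 library per group there was no test. Intervals are 95% exact intervals that cover counting error only, and "higher" and "lower" mean at least 2-fold apart with an interval that leaves out equality.

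Hox transcripts were read in most cells of the GFP-positive library and in few of the RA library. At least 1 Hox UMI was found in 2308 cells (70.2%) of the GFP-positive library, 1481 cells (48.9%) of the GFP-negative library and 203 cells (15.8%) of the RA library. Summed levels were 184.7, 136.5 and 21.3 CPM, from 9251, 4972 and 401 UMIs. The GFP-positive library read 28 of the 39 genes, the GFP-negative library 27 and the RA library 19. No UMI was found in any kept cell for 9 genes, Hoxa11, Hoxa13, Hoxb13, Hoxc8, Hoxc9, Hoxc11, Hoxc12, Hoxc13 and Hoxd12. Of the rest, 5 had 1 to 9 UMIs, 9 had 10 to 99 and 16 had 100 or more. The most UMIs over all libraries belonged to Hoxa5 (4103), Hoxb4 (2494), Hoxb2 (2132) and Hoxa3 (1103). For the GFP-positive, the GFP-negative and the RA library, cluster A had 4882, 1999 and 101 UMIs and cluster B 3039, 2458 and 281. Cluster C had 298, 400 and 5, and cluster D 1032, 115 and 14. Clusters A and B thus held most Hox UMIs of each library.

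**Figure D1:**
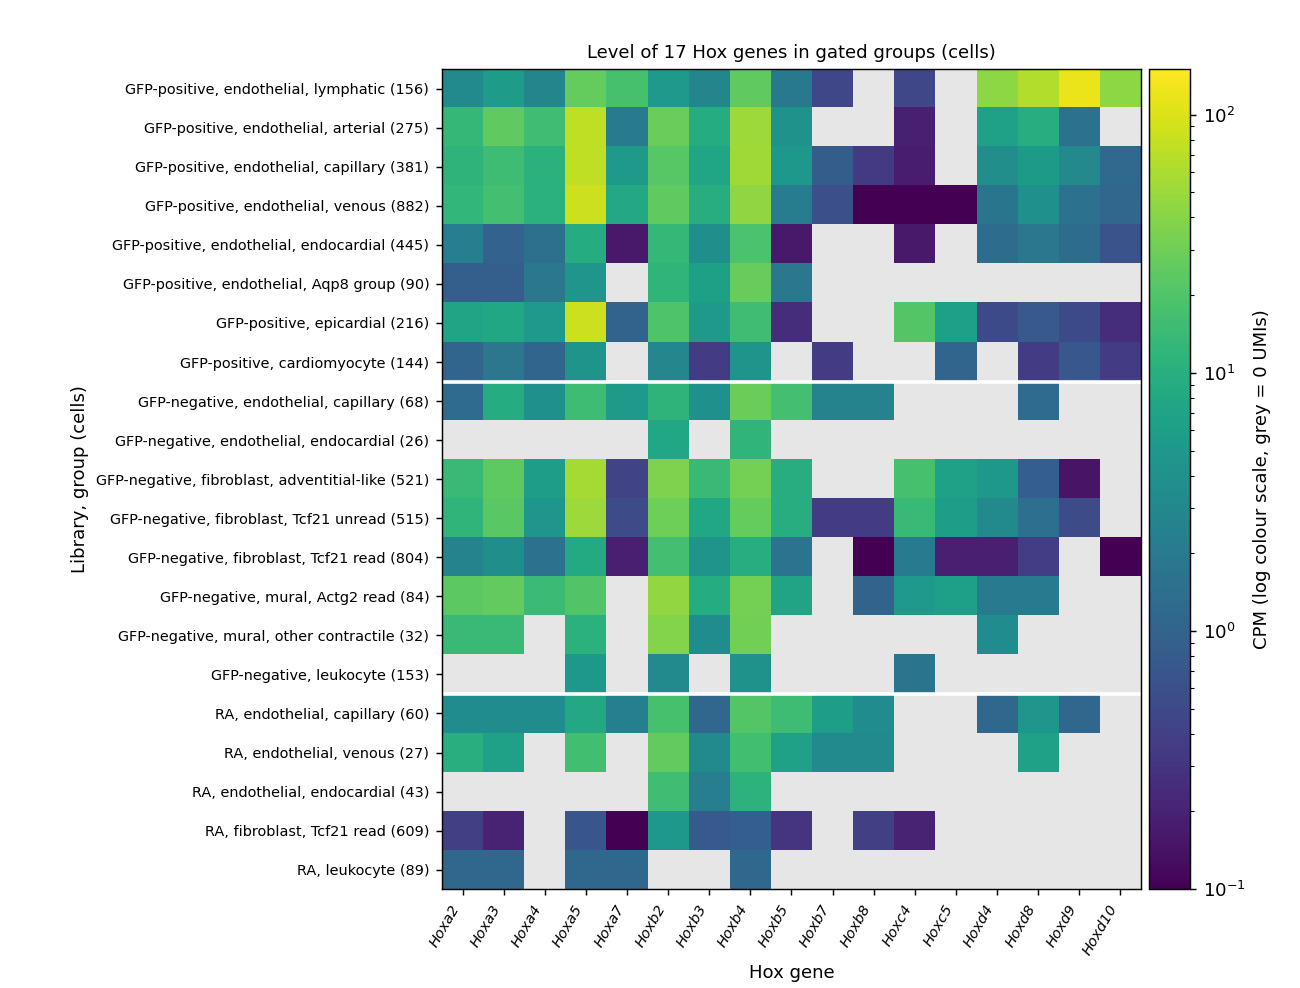
Level of 17 Hox genes (x axis) in gated groups of the 3 libraries (y axis, cells in parentheses) as CPM on a log colour scale, with grey for 0 UMIs. Lymphatic cells stand out at Hoxd4 to Hoxd10 (43.2 to 122.3 CPM), epicardial cells at Hoxc4 (21.4 CPM), and RA Tcf21 read fibroblasts have Hoxb2 at 4.98 CPM and every other gene below 1 CPM.

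Free RNA in droplets gives UMIs in cells that do not make a transcript, so the levels of cell types with little Hox signal are given as a background. Cardiomyocyte-gated cells of the GFP-positive library (144 cells, median 18321 UMIs) had 19.3 CPM of Hox UMIs (95% interval 14.5 to 25.3), with Hoxa5 and Hoxb4 at 4.38 CPM each and Hoxb2 at 2.92 CPM. Leukocytes had 15.01 CPM in the GFP-negative library (153 cells, median 7618 UMIs) and 5.77 CPM in RA (89 cells, median 9010 UMIs). The 45 RA cardiomyocytes had 0 Hox UMIs, which allows up to 5.89 CPM. Scgb3a2, a secretory gene of lung epithelium, lay between 272.9 and 337.4 CPM in cardiomyocytes, epicardial cells and the 6 resolved endothelial groups of the GFP-positive library. In the 519 ungated cells of that library it was at 13318 CPM, and 8 of its cells were gated as epithelial. At equal depth of 2000 UMIs per cell, 2.08% of GFP-positive cardiomyocytes and 1.31% of GFP-negative leukocytes kept a Hox UMI. Cells of the groups described next are read against these values.

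Lymphatic endothelial cells had the largest posterior share of Hox UMIs of any group with at least 50 cells, and it came from cluster D. These 156 cells of the GFP-positive library, gated on Prox1, Lyve1 and 4 further markers (2060 CPM in sum against 98.3 to 426 CPM in the other resolved endothelial groups), had 368.7 CPM of Hox UMIs (343.1 to 395.7). Hoxd9 was read at 122.3 CPM and in 65.4% of the cells, and Hoxd10 at 43.2 CPM and in 39.7%. Both belong to the posterior paralog groups, which in embryos pattern the lumbar trunk and limbs. The central genes Hoxd8 and Hoxd4 were at 64.7 and 43.2 CPM, in 48.1% and 33.3% of the cells. In the other endothelial cells of this library the levels were 2.44 CPM for Hoxd9, 1.09 for Hoxd10, 4.90 for Hoxd8 and 3.24 for Hoxd4. The ratio was 50.2 (38.7 to 65.8) for Hoxd9, 39.6 for Hoxd10, 13.3 for Hoxd4 and 13.2 for Hoxd8. Hoxa7, a central gene of cluster A, was at 17.7 against 4.52 CPM.

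Of the 18 Hox genes measured between lymphatic and other endothelial cells, these 5 were higher and 7 lower, beside 5.75% higher and 8.73% lower among all 14254 genes measured. A gene was measured with 10 UMIs over both sums together and could pass through the group where it was high, so such counts describe the genes that passed and not the 39. The 7 lower genes were the anterior Hoxa2, Hoxa3, Hoxb2 and Hoxb3, the central Hoxa4 and Hoxa5 and the posterior Hoxa9. Hoxa5 was at 26.4 CPM against 61.6 CPM, and Hoxb2 at 5.27 against 22.1 CPM. Hoxa9, a posterior gene of cluster A, had 0 UMIs in lymphatic cells and 2.47 CPM in the others, at least 1.72-fold lower at the floor of 3 UMIs and with an interval of the ratio that ends at 0.734. The median log2 ratio of the 18 genes was -0.68, and that of all genes -0.05. Posterior genes thus made up 346 of the 769 Hox UMIs of lymphatic cells, or 45.0% (41.4% to 48.6%), and anterior genes 5.20%. In 76.9% of the cells a posterior UMI was read, in 54.5% at least 2, and in 30.8% after thinning to 2000 UMIs.

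Posterior UMIs were sparse in the other named groups. They made up 1.02% of Hox UMIs in arterial, 3.08% in capillary, 3.61% in venous, 3.81% in endocardial and 0.423% in epicardial cells of the GFP-positive library. In GFP-negative fibroblasts the share was 0.249%. None was read in GFP-negative mural cells (245 Hox UMIs) or RA fibroblasts (116 Hox UMIs). The Hoxd9 level of epicardial cells, 0.515 CPM, did not exceed that of cardiomyocytes, 0.730 CPM, which is 2 UMIs in each. The GFP-negative library had 2 lymphatic cells, with 4 posterior UMIs among 6 Hox UMIs, and the RA library had none, so this description rests on the GFP-positive library. In that library 124 endothelial cells whose markers gave no single group had Hoxd9 at 16.4 CPM.

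Some lymphatic cells had UMIs of more than 1 HoxD gene. The counts below have no number expected from the share of each gene beside them, so joint use was not tested. Of the 156 lymphatic cells, 53 had both Hoxd9 and Hoxd8, 49 Hoxd9 alone of this pair, 22 Hoxd8 alone and 32 neither. Hoxd9 was read with Hoxd10 in 44 cells and with Hoxa5 in 31. In 78 cells at least 3 Hox genes were read, and these cells held 78.4% of the group's Hox UMIs. No cluster C gene but Hoxc4, with 1 UMI, was read in lymphatic cells.

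**Figure D2:**
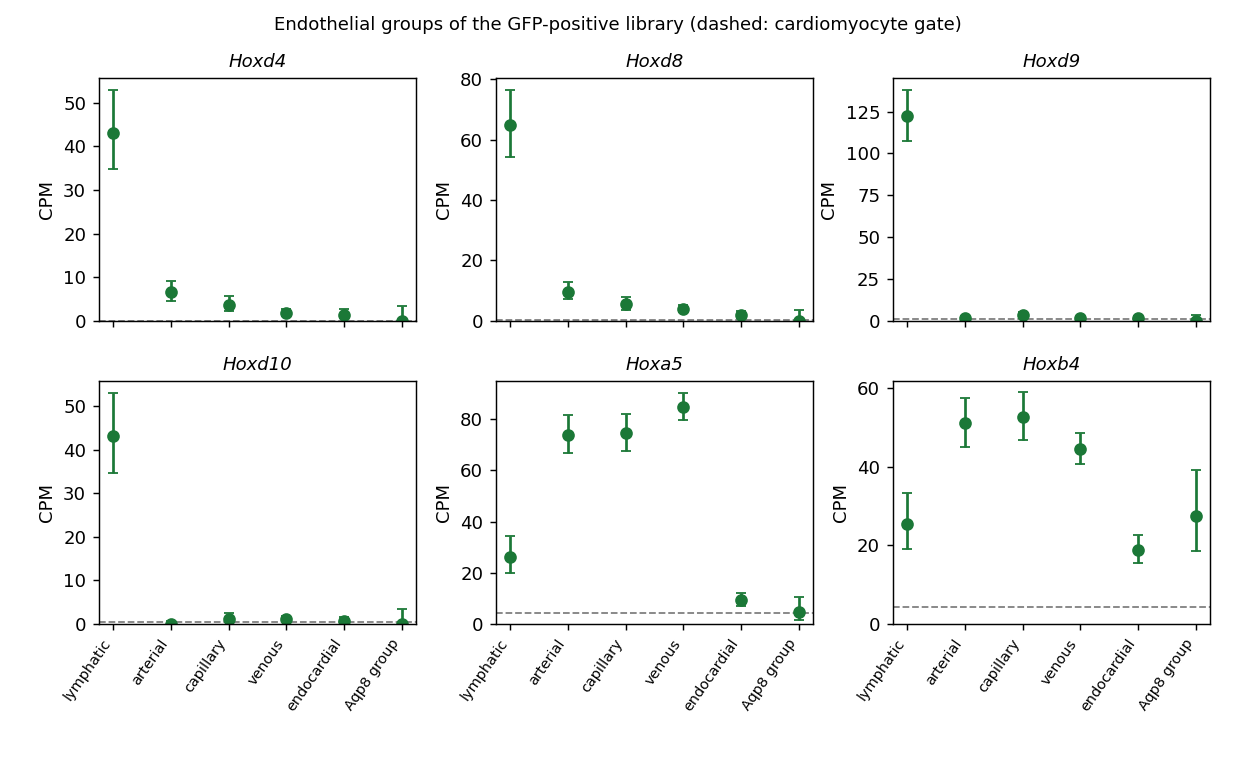
Level in CPM (y axis, from 0) of 4 HoxD genes, Hoxa5 and Hoxb4 in 6 endothelial groups of the GFP-positive library (x axis). Points are summed levels with 95% Poisson intervals and the dashed line is the cardiomyocyte level; Hoxd9 is at 122.3 CPM in lymphatic cells and at most 3.15 CPM elsewhere, while Hoxa5 is highest in venous cells at 84.9 CPM.

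Arterial, capillary and venous cells of the GFP-positive library had Hoxa5, Hoxb4, Hoxb2 and Hoxa3 above their cardiomyocyte levels of 4.38, 4.38, 2.92 and 1.82 CPM. These groups were less apart in their gating markers than lymphatic cells were. The endocardial markers summed to 1866 CPM in arterial cells and 1509 CPM in the endocardial group itself, and the venous markers to 1264 CPM in capillary and 1739 CPM in venous cells. Hoxa5, whose loss in mice impairs lung and trachea formation, was at 74.0 CPM in arterial, 74.6 in capillary and 84.9 in venous cells, and was read in 55.3%, 50.7% and 50.8% of them. Hoxb4 was at 51.1, 52.7 and 44.5 CPM, Hoxb2 at 28.9, 22.4 and 25.3 CPM, and Hoxa3 at 25.1, 15.4 and 16.7 CPM. Hoxa3 acts in thymus, parathyroid and carotid body formation. Summed Hox levels were 246.5 CPM in 275 arterial cells, 227.1 CPM in 381 capillary cells and 232.5 CPM in 882 venous cells. The intervals of the capillary and venous sums, 214.9 to 239.8 and 223.9 to 241.4 CPM, overlap. The share of cells with a Hox UMI was 90.9%, 82.9% and 81.2%, but at equal depth it was 37.1%, 33.3% and 35.5%, and arterial cells were the deepest at a median of 16564 UMIs.

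These groups also differed in a few Hox genes. Against all other endothelial cells of the library, arterial cells had 3 of 18 Hox genes higher (among them Hoxa3 and Hoxa4) and 4 lower (Hoxa7, Hoxa9, Hoxd9 and Hoxd10), beside 4.5% and 7.78% of all genes. Venous cells had Hoxa7, Hoxa9 and Hoxa10 higher and Hoxd4, Hoxd8, Hoxd9 and Hoxd10 lower, beside 1.75% and 3.85% of all genes. Hoxa7 was at 8.22 CPM in venous, 5.25 in capillary and 2.12 in arterial cells, and Hoxa9 at 4.79, 2.45 and 0.386 CPM in the same order. Capillary cells had Hoxb5 and Hoxd1 higher and Hoxd9 and Hoxd10 lower, beside 2.2% and 4.23%. Each of these comparisons has the lymphatic cells on its other side, which hold most Hoxd9 and Hoxd10 UMIs. They also share cells with each other and are not separate comparisons.

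Endocardial cells and the Aqp8 group had mainly UMIs of Hoxb2 to Hoxb4. Endocardial cells line the heart chambers, and the Aqp8 group was gated on Aqp8, Lsamp and Pnliprp1. The 445 endocardial cells had 56.1 CPM of Hox UMIs (50.3 to 62.4) and the 90 cells of the Aqp8 group 56.7 CPM (43.5 to 72.7). Hoxb4 was at 18.9 and 27.4 CPM, Hoxb2 at 12.99 and 11.9 CPM and Hoxb3 at 3.78 and 6.40 CPM, all above the cardiomyocyte levels of 4.38, 2.92 and 0.365 CPM. Hoxa5 was at 9.37 CPM in endocardial cells, or 4.49 CPM after thinning, and at 4.57 CPM in the Aqp8 group, against 4.38 CPM in cardiomyocytes. Cluster B made up 64.2% of Hox UMIs in endocardial cells and 85.5% in the Aqp8 group, against 35.5% in venous cells.

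Of the 18 Hox genes measured, 14 were lower in endocardial than in other endothelial cells and none higher, beside 6.48% lower and 3.67% higher among all genes. Hoxb2 was between, at 12.99 against 22.8 CPM. The ratio was 0.0609 for Hoxa3, 0.133 for Hoxa5 and 0.421 for Hoxb4. In the Aqp8 group 9 genes were lower and none higher, beside 7.68% and 6.02%, and Hoxb2, Hoxb3, Hoxb4 and Hoxb5 were all between. Of the 18 genes, 12 fell short of the UMI minimum in endocardial cells and 16 in the Aqp8 group. These passed only through the sum of the other endothelial cells. Cluster D had 0 UMIs in the Aqp8 group, which allows up to 2.74 CPM. At equal depth 10.6% of endocardial cells and 12.2% of the Aqp8 group had a Hox UMI, against 35.5% of venous cells.

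Endocardial cells of the other libraries were few and also had mainly cluster B UMIs, but so had other endothelial cells there. Cluster B made up 63.0% of Hox UMIs in GFP-negative capillary, 66.3% in RA capillary and 56.25% in RA venous cells. In RA, 43 endocardial cells had 13 Hox UMIs, all of cluster B, at 29.6 CPM (15.8 to 50.7). In the GFP-negative library, 26 endocardial cells had 5 Hox UMIs, again all of cluster B, 3 of Hoxb4 and 2 of Hoxb2. Cluster A had 0 UMIs in both, which allows up to 6.84 and 11.8 CPM. Both groups hold fewer than 50 cells and were not compared further.

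**Figure D3:**
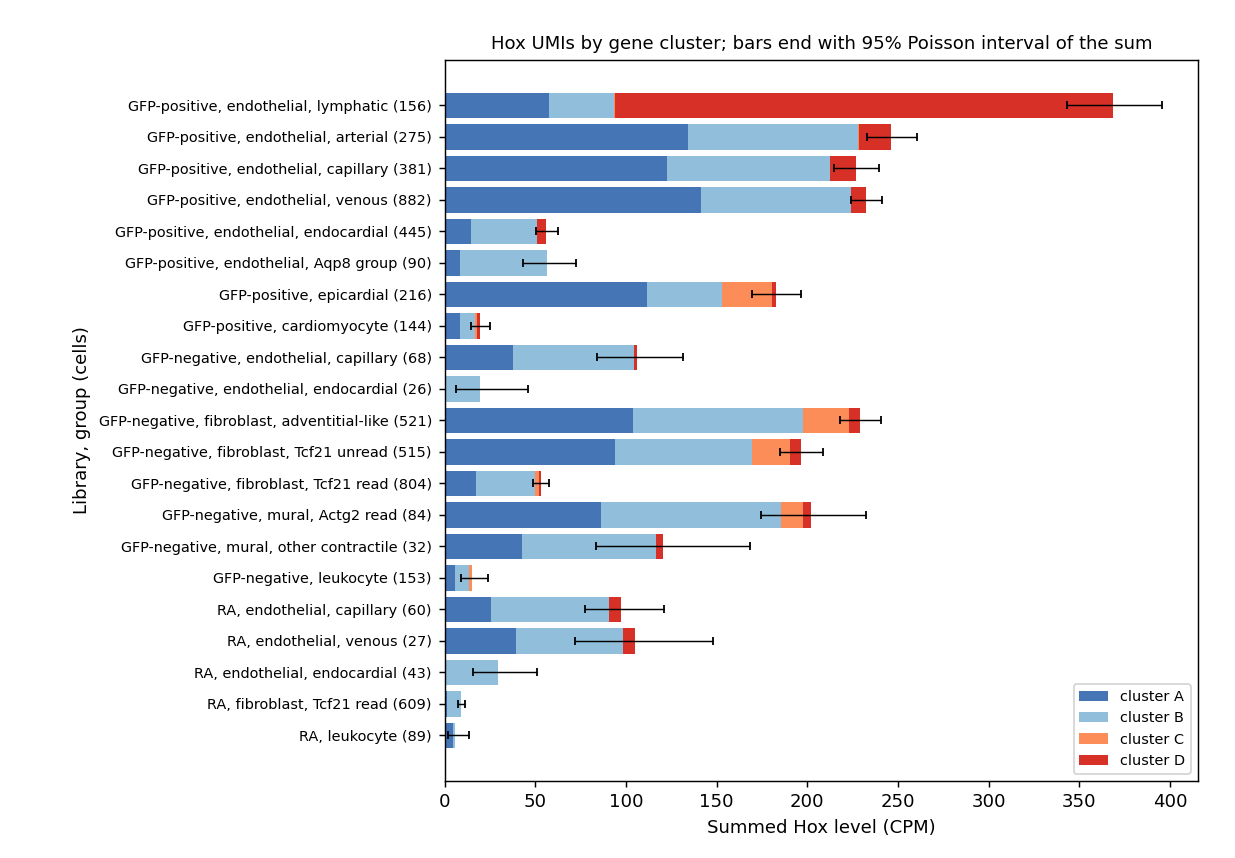
Summed Hox level in CPM (x axis, from 0) of gated groups (y axis, cells in parentheses), split by gene cluster A to D. Black bars are 95% Poisson intervals of the sum; cluster D makes 274.7 CPM of the lymphatic bar, cluster C shows in epicardial cells (27.5 CPM) and adventitial-like fibroblasts (25.4 CPM), and cluster B is the larger part of the endocardial bars.

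Endothelial cells outside the GFP-positive library had lower Hoxa5 levels, and higher Hoxb5 levels that rest on few UMIs. All endothelial cells had 202.0 CPM of Hox UMIs in GFP-positive (2353 cells), 85.1 CPM in GFP-negative (113 cells) and 77.7 CPM in RA (143 cells). Hoxa5 was at 59.4, 11.6 and 7.12 CPM, so GFP-positive cells were 5.13-fold and 8.34-fold higher. Hoxb2 was at 21.02, 13.2 and 19.6 CPM, between in both comparisons. Hoxb5, which acts in neck and shoulder patterning, went the other way with 2.55, 10.7 and 8.90 CPM. These are 85, 13 and 15 UMIs, of which capillary cells held 28, 13 and 13. Against GFP-negative, 8 of 18 Hox genes were higher and 1 lower, beside 7.13% and 3.65% of all genes. Against RA 12 were higher and 2 lower, beside 7.83% and 4.44%. The lower genes were Hoxb5 in both and Hoxb7 in RA. Of the 18 genes, 14 fell short of the UMI minimum in GFP-negative and 14 in RA. These passed only through the GFP-positive sum, so nothing is read from the counts. Hoxa5, Hoxb2, Hoxb4 and Hoxb5 reached the minimum in all libraries. Both comparisons share the GFP-positive library, which holds 156 lymphatic cells where GFP-negative has 2 and RA none. Capillary cells were 381 of the 2353 endothelial cells in GFP-positive, 68 of 113 in GFP-negative and 60 of 143 in RA.

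Capillary cells were the only endothelial group with at least 50 cells in every library, with 381, 68 and 60 cells. They were not matched between libraries in gating markers. Capillary markers summed to 9227, 14657 and 9801 CPM, venous markers to 1264, 535.8 and 674.6 CPM, and endocardial markers to 327.3, 5.23 and 9.40 CPM. The Hox sums of the capillary cells were 227.1 CPM, 105.8 CPM and 97.5 CPM, a ratio of 2.15 (1.71 to 2.72) against GFP-negative and 2.33 (1.86 to 2.94) against RA. Hoxa5 was at 74.6, 15.7 and 8.23 CPM, and Hoxb4 at 52.7, 28.8 and 21.2 CPM. Hoxb5 was at 4.90, 16.99 and 15.3 CPM, from 28, 13 and 13 UMIs. Thinning put the GFP-negative and RA values at 7.35 and 8.33 CPM, both under the floor of 3 UMIs at that depth. Only 11 and 8 of these cells kept any Hox UMI. Of 14 and 15 Hox genes measured, 2 and 6 were higher in GFP-positive cells, beside 8.36% and 8.5% of all genes. Lower were 1 and 2, beside 3.47% and 4.73%. Of these measured genes, 11 and 12 fell short of the UMI minimum in GFP-negative and RA, so nothing is read from the counts. The 2 genes higher against GFP-negative were Hoxa2 and Hoxa5, and with no lead required in the gate, a setting added after seeing the data, 5 were. The share of all genes was not counted under that setting. The lower genes were Hoxb5 in both comparisons and Hoxb7 against RA, the last from 5 UMIs on each side. Cells with a Hox UMI made up 82.9%, 52.9% and 61.7%, or 33.3%, 16.2% and 13.3% at equal depth.

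Epicardial cells differed from the endothelium by cluster C. Epicardium is the mesothelial cover of the heart, and 216 cells of the GFP-positive library were gated on Upk3b, Msln, Wt1 and 5 further markers. Whether these markers tell epicardium from other mesothelium was not tested. Their Hox sum was 182.8 CPM (169.6 to 196.8), with 74.1% of cells reading a Hox UMI. Hoxc4, which acts in neck vertebrae and oesophagus, was at 21.4 CPM and in 24.1% of cells, against 0.180 CPM in endothelial cells, a ratio of 118.6 (52.3 to 332.5). Its neighbour Hoxc5 was at 6.18 CPM against 0.0300 CPM, where the endothelial value is 1 UMI. The cardiomyocyte level was 0 for Hoxc4 and 1.09 CPM for Hoxc5.

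Epicardial and endothelial cells differed less in Hoxa5 and Hoxb2. Hoxa5 was at 85.8 CPM, in 47.7% of cells, and Hoxb2 at 20.1 CPM, both between in the comparison with endothelial cells. Of 20 Hox genes measured, 3 were higher, among them Hoxc4 and Hoxc5, and 8 lower, beside 13.4% and 12.5% of all genes. Of the 20, 10 had fewer than 10 UMIs in epicardial cells and 2 in endothelial cells. The lower genes were the central Hoxa7, Hoxb4, Hoxb5, Hoxd4 and Hoxd8 and the posterior Hoxa9, Hoxd9 and Hoxd10. Hoxb4 was at 16.0 against 40.2 CPM, and Hoxd8 at 0.773 against 8.65 CPM. Of the 52 epicardial cells with Hoxc4, 43 also had Hoxa5, while 60 had Hoxa5 alone of this pair. Another 214 cells had epicardial markers as their best set but fell short of the required lead, and their Hoxc4 and Hoxa5 levels were 24.2 and 115.5 CPM.

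Among the cell classes compared between libraries, fibroblasts had the largest ratio of summed Hox levels. GFP-negative fibroblasts (1840 cells) had 139.9 CPM of Hox UMIs (135.1 to 144.8) and RA fibroblasts (702 cells) 10.2 CPM (8.45 to 12.3), a ratio of 13.7 (11.4 to 16.6). RA fibroblasts were the deeper, with a median of 15896.5 against 12091 UMIs. Cells with a Hox UMI were 50.5% against 9.97%, and 22.9% against 1.85% at equal depth. The RA value is near the 5.77 CPM of RA leukocytes, whose interval of 1.87 to 13.5 CPM includes it. That leukocyte level rests on 5 UMIs. The interval of the 45 RA cardiomyocytes, with 0 Hox UMIs, ends at 7.24 CPM, below the RA fibroblast interval.

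Of the 39 Hox genes, 15 reached 10 UMIs over both sums, and these were higher in GFP-negative fibroblasts, beside 9.37% higher and 2.73% lower among 14506 genes. Of the 15, 13 had fewer than 10 UMIs in RA and passed only through the GFP-negative sum, so nothing is read from the count. Hoxb2 and Hoxb4 passed in both. Hoxa5 was at 33.3 against 0.705 CPM, a ratio of 47.2 (23.9 to 109.8). Hoxb4 was at 20.4 against 1.32 CPM, a ratio of 15.4, and Hoxa3 at 14.7 against 0.617 CPM, a ratio of 23.7. Hoxb2 had the least difference among genes with 100 or more UMIs, at 25.8 against 4.76 CPM, a ratio of 5.41 (4.09 to 7.29). Hoxc4 was at 9.59 against 0.353 CPM, a ratio of 27.2, and Hoxc5 at 3.49 CPM against 0 UMIs, at least 13.2-fold higher at the floor of 3 UMIs and with an interval that starts at 10.5.

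The difference was also present among fibroblasts with a read of Tcf21, a factor of cardiac fibroblasts and their epicardial progenitors. Cells without the adventitial-like marker set in which Tcf21 was read numbered 804 in GFP-negative and 609 in RA. Their Hox sums were 52.9 CPM (48.6 to 57.5) and 8.97 CPM, a ratio of 5.90 (4.71 to 7.45). The 9 Hox genes with 10 UMIs over both sums were higher in GFP-negative cells, beside 3.39% higher and 2.59% lower among all genes, but 8 of them passed only through the GFP-negative sum, and nothing is read from the count. Hoxa5 was at 8.79 against 0.698 CPM, Hoxb4 at 9.45 against 0.897 CPM and Hoxb2 at 17.01 against 4.98 CPM. Tcf21 itself was at 328.2 against 800.5 CPM, so the cells were not matched in it.

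**Figure D4:**
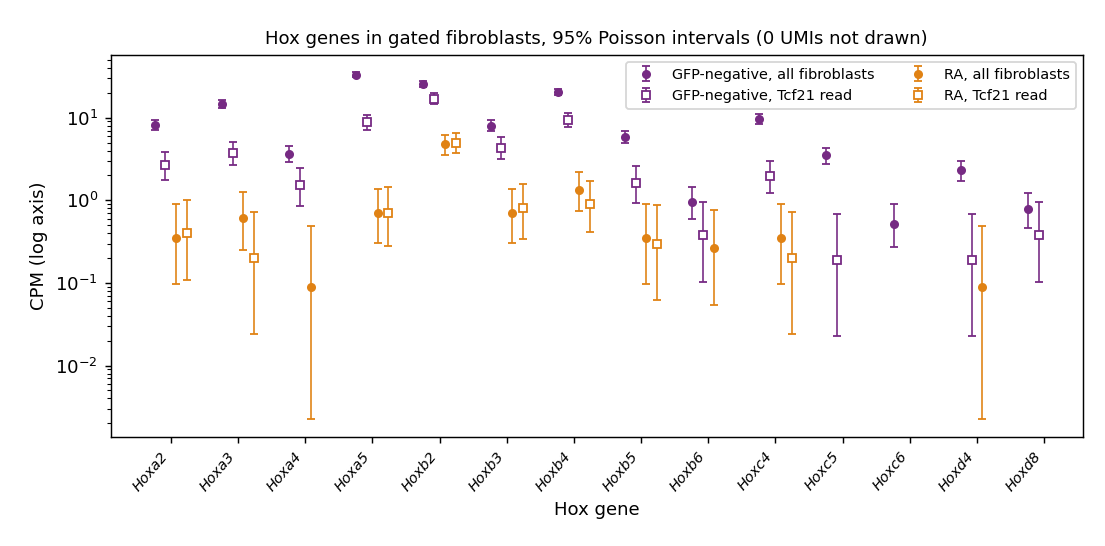
Level in CPM (log y axis) of 14 Hox genes measured in fibroblasts (x axis), for all fibroblasts (filled circles) and Tcf21 read fibroblasts (open squares) of GFP-negative (purple) and RA (orange), with 95% Poisson intervals. Values of 0 UMIs are not drawn; Hoxa5 is at 33.3 and 8.79 CPM in GFP-negative against 0.705 and 0.698 CPM in RA.

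Within the GFP-negative library, Hox levels went with the fibroblast group. Adventitial-like fibroblasts, with UMIs of at least 2 of Ly6a, Clec3b, Penk and Pi16, had 229.2 CPM (521 cells), Tcf21 unread fibroblasts 196.5 CPM (515 cells) and Tcf21 read fibroblasts 52.9 CPM. Hoxa5 was at 56.7, 51.4 and 8.79 CPM and Hoxc4 at 17.7, 14.1 and 1.98 CPM in this order. Hoxb2 differed least, at 36.4, 29.5 and 17.01 CPM. Of 14 Hox genes measured, 12 were higher and none lower in adventitial-like than in Tcf21 read cells, beside 6.27% and 2.14% of all genes. The same counts, 12 and 0 of 14, held for Tcf21 unread against Tcf21 read cells, beside 7.24% and 3.32%. At least 3 Hox genes were read in 204 of the 521 adventitial-like cells and in 49 of the 804 Tcf21 read cells.

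Haemoglobin moved with some of these results. It made up 19.9% of UMIs in GFP-negative Tcf21 unread fibroblasts and 75.0% in the 78 RA cells of that gate, against 1.20% and 1.54% in the Tcf21 read cells. For the Tcf21 unread gate, 9 of 13 Hox genes were higher in GFP-negative, but so were 61.3% of all genes, with 0.525% lower. With CPM taken without mitochondrial and haemoglobin UMIs 2 Hox genes were higher. The median log2 ratio of all genes was then -0.09, in place of 1.60. Without cells over 10% haemoglobin, an alternative added after seeing the data, the RA gate kept 25 cells, with 19 Hox UMIs at 100.8 CPM. In RA, 1 Tcf21 unread cell held 12 of the gate's 22 Hox UMIs. No difference between libraries is therefore given for that gate. For all fibroblasts and for Tcf21 read fibroblasts, the ratio of summed Hox levels without cells over 10% haemoglobin was 13.5 and 5.86. Within the GFP-negative library, the ratio of Tcf21 unread to Tcf21 read cells was then 4.65 (4.19 to 5.16), against 3.71 with all cells.

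The Hox UMIs of RA fibroblasts lay in few cells. Hoxb2 made up 54 of the 116 UMIs, in 42 of 702 cells. At least 3 Hox genes were read in 6 cells, and those cells held 31.0% of the Hox UMIs. Without them the level was 7.11 CPM. Among GFP-negative fibroblasts, 383 of 1840 cells read at least 3 Hox genes and held 68.8% of the Hox UMIs, and the rest had 55.7 CPM.

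Mural cells of the GFP-negative library had Hox UMIs of the anterior and central genes of clusters A and B above all. The 125 mural cells, mostly contractile cells with Actg2 (84 cells), had 186.4 CPM of Hox UMIs (163.8 to 211.2), and 66.4% of them had a Hox UMI. Hoxb2 was at 45.6 CPM, Hoxb4 at 35.0, Hoxa3 at 22.8, Hoxa2 at 21.3 and Hoxa5 at 19.8 CPM. Hoxa2 and Hoxb2 act in the hindbrain and the neural crest of the second pharyngeal arch. Anterior genes made up 53.5% (47.0% to 59.8%) of mural Hox UMIs, against 41.5% (39.8% to 43.2%) in fibroblasts of the same library. This share was not particular to mural cells, since Tcf21 read fibroblasts of that library had 53.0% (48.8% to 57.2%). Adventitial-like fibroblasts had 39.6% and Tcf21 unread fibroblasts 38.25%. Of 15 Hox genes measured against those fibroblasts, Hoxa2 and Hoxa4 were higher and Hoxc4 lower, beside 7.8% and 5.29% of all genes. Hoxa2 was at 21.3 against 8.20 CPM, a ratio of 2.60, and Hoxa4 at 10.7 against 3.62 CPM. Hoxc4 was at 3.80 against 9.59 CPM, from 5 mural UMIs, and Hoxa5 was between at 19.8 against 33.3 CPM. With a marker counted from 2 UMIs, 4 genes were higher, and the share of all genes was not counted under that setting. After thinning the anterior share was 42.9%, and the mural sum of 140.0 CPM lay below the fibroblast sum of 172.3 CPM. Only 29 of the 125 mural cells kept a Hox UMI, and no interval is given for these sums, so their order is not read.

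Actg2 read mural cells (84 cells, 201.8 CPM) and Tcf21 unread fibroblasts (196.5 CPM) had similar sums, a ratio of 1.03 (0.878 to 1.20). Without cells over 10% haemoglobin it was 0.813. Of 14 Hox genes measured, Hoxa2 and Hoxa4 were higher and Hoxa5 and Hoxc4 lower in the mural cells, beside 9.74% and 4.93% of all genes. The RA library had 20 mural cells with 2 Hox UMIs, too few to compare with GFP-negative. Glia, 19 cells in the GFP-negative library, had 8 Hox UMIs, 4 of them Hoxb4.

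**Figure D5:**
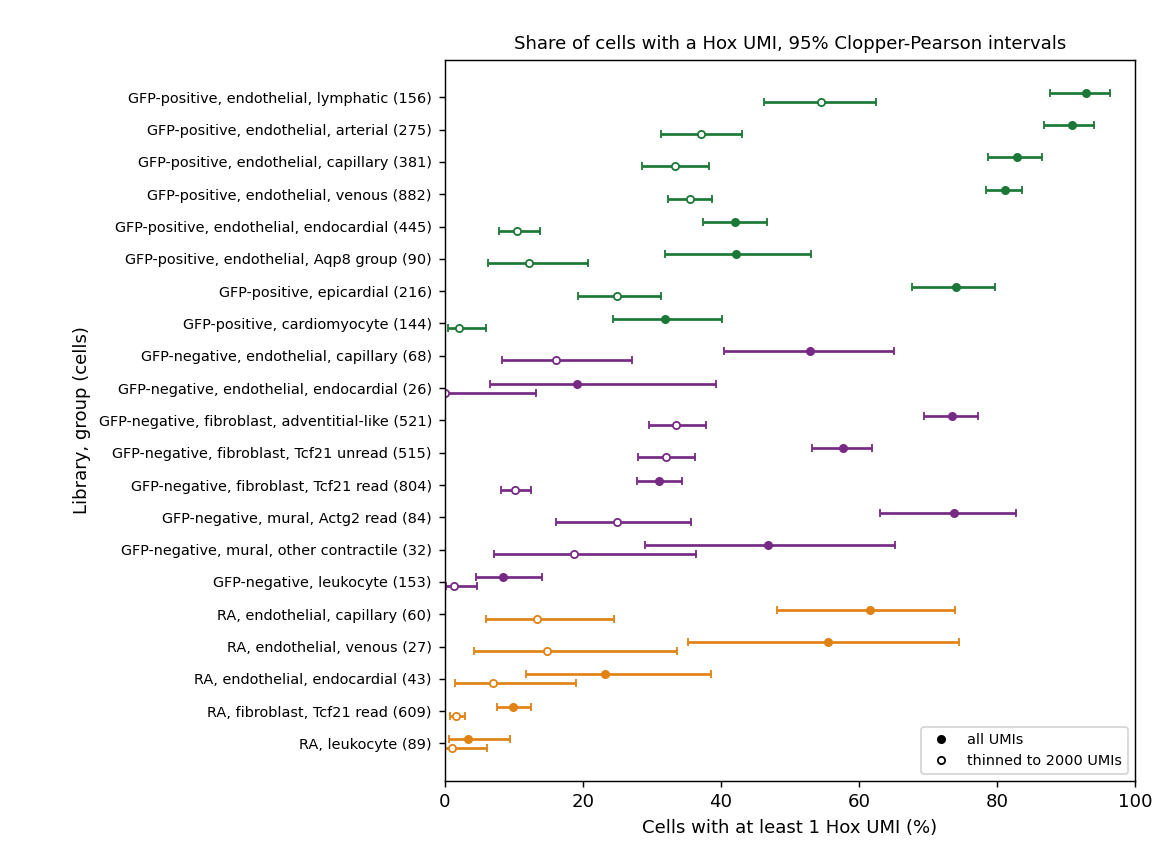
Share of cells with at least 1 Hox UMI (x axis, percent) in gated groups (y axis, cells in parentheses), with all UMIs (filled) and thinned to 2000 UMIs per cell (open), 95% Clopper-Pearson intervals. Lymphatic cells are at 93.0% and 54.5%, GFP-positive cardiomyocytes are at 31.9% and 2.08%, and RA Tcf21 read fibroblasts lie at 9.85% with all UMIs.

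Genes that act with or upstream of Hox genes, and genes of other regions, were followed in 5 lists. Of the 9 Hox cofactors, none was higher or lower between GFP-negative and RA fibroblasts, and Meis2 was at 55.2 against 44.7 CPM and Meis1 at 45.8 against 26.0 CPM. Of the 14 retinoid genes, 4 were higher and 1 lower, and both lists are read against the 9.37% higher and 2.73% lower of all genes. The lower gene was Aldh1a2, the main enzyme of retinoic acid synthesis in embryonic mesoderm, at 50.1 against 104.8 CPM. Medians of log2 ratios were 0.23 and 0.45 for these lists.

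Regional genes differed between the same fibroblasts. Of 9 cardiac factors, 2 were higher and 2 lower, and the lower were Tcf21, at 191.9 against 729.4 CPM, and Tbx20, at 109.4 against 252.7 CPM. Of 6 lung and foregut genes measured, 5 were higher, among them Foxf1 of gut and lung mesenchyme at 7.72 against 1.06 CPM and the hedgehog target Gli1 at 10.0 against 2.47 CPM. Of 5 pharyngeal and body wall genes measured, 4 were higher, while Prrx1 was between at 81.1 against 79.7 CPM. Medians of log2 ratios were -0.55, 2.63 and 3.94. Their background is the same 9.37% and 2.73%. Among Tcf21 read fibroblasts Tbx20 was between, at 179.4 against 273.7 CPM, as was Aldh1a2, at 82.5 against 115.7 CPM, while Foxf1 was higher at 4.63 against 1.20 CPM. Of 4 lung and foregut genes measured in that gate, 3 were higher and 1 lower, beside 3.39% and 2.59% of all genes.

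The same lists were counted in the GFP-positive library. Against other endothelial cells, lymphatic cells had 7 of 8 cardiac factors lower, among them Gata6 at 45.1 against 149.8 CPM, and 4 of 9 cofactors lower, among them Meis1 at 3.36 against 11.2 CPM, beside 8.73% of all genes lower and 5.75% higher. Lower cardiac factors were not particular to them, with 6 of 8 in capillary and 4 of 8 in arterial cells, beside 4.23% and 7.78%. Tbx1, a gene of pharyngeal mesoderm and of lymphatic development, was at 123.2 against 7.56 CPM, 1 of 3 pharyngeal genes measured. Retinoid genes were lower for 5 of 13 and higher for 1. No lung or foregut gene was higher or lower there. Epicardial cells had Aldh1a2 at 221.5 against 5.35 CPM in endothelial cells and Meis1 at 53.6 against 10.7 CPM. Their cofactors were higher for 2 and lower for 2 of 9, retinoid genes 2 and 4 of 13, cardiac factors 3 and 0 of 9, lung genes 0 and 1 of 2 and pharyngeal genes 2 and 1 of 4, beside 13.4% higher and 12.5% lower among all genes.

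Other Hox genes were among the genes most like the leading ones in pattern. Over 19 groups of at least 50 cells, and among 11682 genes, the pattern most like Hoxa5 belonged to Gm15050 (Pearson r 0.96), followed by Hotairm1 (0.92), Hoxa4 (0.87), Hoxa2 (0.86) and Mamstr (0.85). For Hoxb4 it was Hoxa4 (0.90), Hoxb3 (0.86), Hotairm1, Tmem158 and Hoxa5 (0.84 each), and for Hoxb2 it was Rhbdf1 and Hoxb3 (0.88 each), then Pdgfd, Rarg and Atp2b4 (0.86 each). These are descriptions over groups that share libraries and, in part, cells. Transcripts of Hoxb3 and Hoxb4, and of Hoxd3 and Hoxd4, overlap in RefSeq, and whether counting used the strand is not given in the sources used here, so reads of such neighbours may not be fully separable.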

How the data were processed

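The authors deposited UMI counts per gene and barcode, whole numbers in each of 3 matrices. Cell Ranger and mm9 are named per the submitters' processing notes, and the version is not given in the sources used here. Barcodes under 500 detected genes, or over 50.0% mitochondrial UMIs, were dropped. No doublet caller was run. A cell was gated to 1 of 9 classes when at least 0.5 of its markers had a UMI with a lead of 0.2 over every other class, and 518, 742 and 283 cells of the GFP-positive, GFP-negative and RA libraries missed only that lead. UMIs were summed per group and library. Groups needed 50 cells and genes 10 UMIs over both sums together to be compared. Calls needed a 2-fold ratio, with 0.5 UMIs added, and a 95% exact conditional binomial interval without equality. CPM has Poisson and shares have Clopper-Pearson intervals. UMIs from amplified reads of 1 library give no replicate error. A level of 0 allows 3 UMIs. Shares were repeated after thinning each cell to 2000 UMIs (seed 7), which left no cell out. Python 3.11.15, numpy 2.4.6, scipy 1.17.1 and pandas 2.3.3 were used, and the calls were tested on simulated data.

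The Hox genes named are the 12 with most UMIs and any read in at least 5% of a group of 50 cells, 18 in all. List genes are named at 10 CPM or more in some group, at most 5 per list. Neighbours in pattern are the 5 highest Pearson r of log2(CPM + 1). Other genes named with a count are its members, chosen after their values were seen. Members, lists and marker sets were chosen with earlier results of these data known. Of the Ensembl IDs, 27645 of 27998 (98.7%) are in a GENCODE table of another build than mm9, so coordinates come from RefSeq alone. Alternatives were other gates, filters, folds, scaling and depth. Some results are not reported here.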

Additional observations from a re-analysis of the deposited data

Results flagged for a closer look

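Non-coding features of the Hox clusters, which the gene rule leaves out, had UMIs above a background cell type of the same library in the groups named here. Hoxb3os was at 41.2 CPM in Actg2 read mural cells of the GFP-negative library, against 0.834 CPM in leukocytes. In the GFP-positive library it was at 12.8 CPM in cardiomyocytes, above lymphatic (8.63 CPM) and epicardial cells (6.95 CPM) and close to arterial cells (13.7 CPM). Hoxb5os was at 6.18 CPM in the same mural cells, against 0 in leukocytes. Hoxaas3 was at 19.8 CPM in GFP-positive capillary cells, against 1.46 CPM in cardiomyocytes. Hoxd3os1 was at 27.3 CPM in lymphatic cells, against 0 in cardiomyocytes, and so was highest where the HoxD genes were. Whether these reads are separate from those of their coding neighbours was not tested.

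Cells left out by the gate also carried Hox UMIs. The 214 GFP-positive cells whose best set was epicardial had 232.9 CPM, against 182.8 CPM in the gated epicardial cells. The 144 GFP-negative cells whose best set was mural had 229.1 CPM, against 186.4 CPM in the gated mural cells.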

How the results depend on the processing

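Of 485 values of 65 results under 10 settings, 447 were labelled the same and 38 moved. Levels and shares had to stay within counting error, and counts within 1.5 times. A log2 ratio was labelled the same when it kept its sign and its call, however far it moved. Thinning to 2000 UMIs gave 172.3 CPM for all Hox genes in GFP-negative fibroblasts, 12.8 CPM in RA fibroblasts and 140.0 CPM in GFP-negative mural cells. The mural sum, above the fibroblast sum at 186.4 against 139.9 CPM, was then below it. With a Hox UMI left in only 29 of 125 mural cells, that order is not read. Thinning also gave an anterior share of 42.9% in mural cells and posterior shares of 9.21% in GFP-positive endothelial and 0% in epicardial cells. GFP-negative fibroblasts were at 147.2 CPM with at least 1000 genes and 148.2 CPM without cells over 10% haemoglobin. Shares of all genes were counted at the main setting only, so the counts that follow have no background beside them. Hox genes higher in mural than fibroblast cells numbered 4 with markers from 2 UMIs, 5 at 1.5-fold and 4 with no lead needed, against 2. The last setting and that on haemoglobin were chosen after seeing the data. Outside these results, the summed ratio of Actg2 read mural cells to Tcf21 unread fibroblasts turned from 1.03 to 0.813 without cells over 10% haemoglobin. Thinning put Hoxb5 of GFP-negative capillary cells, at 16.99 CPM before, at 7.35 CPM, under the floor of 3 UMIs at that depth. It put Hoxa5 of endocardial cells at 4.49 CPM, in place of 9.37, also from few UMIs. The cause was not tested. Mural cells of GFP-negative and RA could not be compared under any setting, with 20 in RA. No paired analysis was possible because each group has 1 library. Levels under 3 UMIs of a group, and groups under 50 cells, set the limit of what could be read.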
